A study of Rattus norvegicus with 9 samples.

Results

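The insulin-like growth factor (IGF) genes are described here in demyelinated rat white matter: the growth factors, the type 1 receptor and the binding proteins. The members were 9 listed genes, and a gene was kept where a probe of the authors' normalized table carries its symbol in the platform annotation. That left 7 genes, each with 1 probe, among 10552 probes and 7574 named genes in all: Igf2, Igf1r, Igfbp2, Igfbp3, Igfbp4, Igfbp6 and Igfbp7. Igf1 and Igfbp5 were not analysed here. There were 9 Illumina arrays, with 3 biological replicates per time point at 5, 14 and 28 days after the lesion (days post lesion, dpl). All arrays came from Sprague Dawley rats aged 12 weeks at the time of lesion. In every group the caudal cerebellar peduncle, a tract entering the cerebellum, had been injected with 0.1% ethidium bromide, which kills local glia, and the lesion was cut from frozen brain by laser capture. All groups are lesioned tissue, so differences are between times after lesion and not from intact white matter. No source used here says whether every array stands for a separate animal, and a p-value therefore covers only the spread among these arrays.

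IGF1 and IGF2 are secreted peptides that signal through the tyrosine kinase receptor encoded by Igf1r, which feeds the PI3 kinase, AKT and mTOR pathway and the MAP kinase pathway. IGFBP2 to IGFBP6 bind the growth factors with high affinity and can withhold or deliver them, while IGFBP7 binds them weakly. In the brain, IGF signalling is known to favour survival and differentiation of oligodendrocyte lineage cells, IGF2 is made by the choroid plexus, meninges and vessels, and IGFBP2 is made by astrocytes and choroid plexus.

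The 250 bases before the annotated gene start are printed for the members that passed the test between 14 and 5 dpl, since these genes rose in the same interval. They are read 5′ to 3′ on the gene's strand from RefSeq, assembly GRCr8, which holds a promoter window for all 7 members. Capitals mark matches on either strand to the motifs searched, which were the TATA box (TATAAA), the CCAAT box by its name, the GC box (GGGCGG), the palindromic E box (CACGTG) and the core of nuclear receptor elements (AGGTCA). Igf2 has a pair of annotated starts, the first at chr1:207253981-207254230 and the second at chr1:207250476-207250725, both on the minus strand. The Igfbp2 window is chr9:81864561-81864810 on the plus strand, and the Igfbp7 window is chr14:31091486-31091735 on the plus strand.
Igf2 first start: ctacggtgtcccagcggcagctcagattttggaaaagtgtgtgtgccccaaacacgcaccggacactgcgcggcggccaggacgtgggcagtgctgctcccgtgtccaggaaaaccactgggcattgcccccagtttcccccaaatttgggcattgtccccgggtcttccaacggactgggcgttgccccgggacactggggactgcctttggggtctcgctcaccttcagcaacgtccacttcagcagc
Igf2 second start: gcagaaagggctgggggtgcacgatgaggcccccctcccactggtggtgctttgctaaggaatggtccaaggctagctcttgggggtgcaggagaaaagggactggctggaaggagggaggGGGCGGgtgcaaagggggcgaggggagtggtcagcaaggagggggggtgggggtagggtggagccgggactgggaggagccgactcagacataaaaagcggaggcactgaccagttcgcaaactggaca
Igfbp2: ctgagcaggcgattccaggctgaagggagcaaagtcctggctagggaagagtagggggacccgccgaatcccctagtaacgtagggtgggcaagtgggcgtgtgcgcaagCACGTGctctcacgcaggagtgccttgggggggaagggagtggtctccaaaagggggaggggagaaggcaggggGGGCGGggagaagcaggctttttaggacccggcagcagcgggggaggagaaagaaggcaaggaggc
Igfbp7: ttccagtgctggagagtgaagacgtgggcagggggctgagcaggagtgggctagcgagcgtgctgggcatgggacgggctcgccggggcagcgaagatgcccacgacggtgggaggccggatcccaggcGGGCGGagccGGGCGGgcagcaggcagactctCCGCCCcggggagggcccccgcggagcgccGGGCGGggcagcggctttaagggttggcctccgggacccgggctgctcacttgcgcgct

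The GC box GGGCGG stood in the second Igf2 window, in the Igfbp2 window and 4 times in the Igfbp7 window. It is held by 30.5% of the 33469 rat windows of this length. The E box CACGTG stood only in the Igfbp2 window among these 4, at 140 bases before the start, and is held by 5.59% of all windows. No TATA box (held by 12.9% of all windows), CCAAT box (34%) or nuclear receptor core (14.1%) was found in the 4 windows, which says only that these letters are not there. No motifs overlapped. The GC content was 62.4% and 63.6% for the Igf2 windows, 64% for Igfbp2 and 74.4% for Igfbp7, against a median of 51.2% over all windows.

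Values are the authors' normalized values, read here as log2, and a difference is the later minus the earlier time point with its standard error (SE) from a limma fit across all probes. Adjusted p-values come from that fit, by Benjamini-Hochberg over all probes. Errors beside a mean are SD with n = 3 arrays. Background on this scale was estimated at 7.25 to 7.31 and the higher value was used. The lowest value in the table is 6.87, so that a dim gene has little room below the background. In these bulk samples, fewer cells of a type and less RNA per cell cannot be told apart.

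A pair of arrays bears on the members. Summed levels of a list add its linear values and are given in units of 1000. The array of 5 dpl replicate 1 was high in neuron genes. The summed linear level of the 13 measured neuron genes was 16.4 on it, against 3.34 and 4.21 on the other 5 dpl arrays. It was also the highest 5 dpl array in the summed level of the 9 measured astrocyte genes, 20.0 against 10.3 and 11.6. Among these, Aldoc was 12.19 on it, against 9.40 and 9.54. Slc1a2 and Aqp4, both under the background at 5 dpl, were not highest on it, while the other measured astrocyte genes were. The 10 oligodendrocyte and myelin genes summed to 16.6 on it, against 10.7 and 11.9. The array of 14 dpl replicate 3 was high in Ttr, transthyretin, the hallmark product of the choroid plexus, which lies near this tract: Ttr was 7.33, 8.22 and 10.73 on the 14 dpl arrays. Of the tract's own cell markers, the 10 measured oligodendrocyte and myelin genes summed to 10.7 to 16.6 (5 dpl), 32.6 to 47.1 (14 dpl) and 78.7 to 92.7 (28 dpl).

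Several members rose after 5 dpl, and no member passed the test as lower. At 14 against 5 dpl, 3 of 7 passed the test as higher (Igfbp2, Igf2 and Igfbp7), where 10.7% of all probes did. As lower 0 passed, also at an unadjusted p under 0.05, where 10.1% of all probes passed with adjustment. At 28 against 5 dpl, 5 of 7 were higher (Igfbp2, Igf2, Igfbp3, Igf1r and Igfbp6), where 20.2% of all probes were. Again 0 were lower, also unadjusted, where 24.1% of all probes were lower with adjustment. Between 28 and 14 dpl, 0 members passed with limma in either direction, where 7.49% of all probes passed as higher and 7.48% as lower. At an unadjusted p under 0.05, a looser threshold than that of these shares, 3 members were higher (Igf1r, Igfbp2 and Igfbp6) and 0 lower. The median difference of the 7 members was 0.81 at 14 against 5 dpl, 0.26 at 28 against 14 dpl and 0.55 at 28 against 5 dpl, where the median over all probes was -0.01, -0.01 and -0.03. An F test for any difference among the times passed for 4 members, where 41.4% of all probes passed. The count at 14 against 5 dpl was 1, Igfbp2 alone, when any of 5 dpl replicate 2, 14 dpl replicate 2 and 14 dpl replicate 3 was left out. The count at 28 against 5 dpl was 3 without 5 dpl replicate 2 and 3 without both 5 dpl replicate 1 and 14 dpl replicate 3. Leaving out that pair of arrays together was chosen after seeing the data, here and below.

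**Figure D1:**
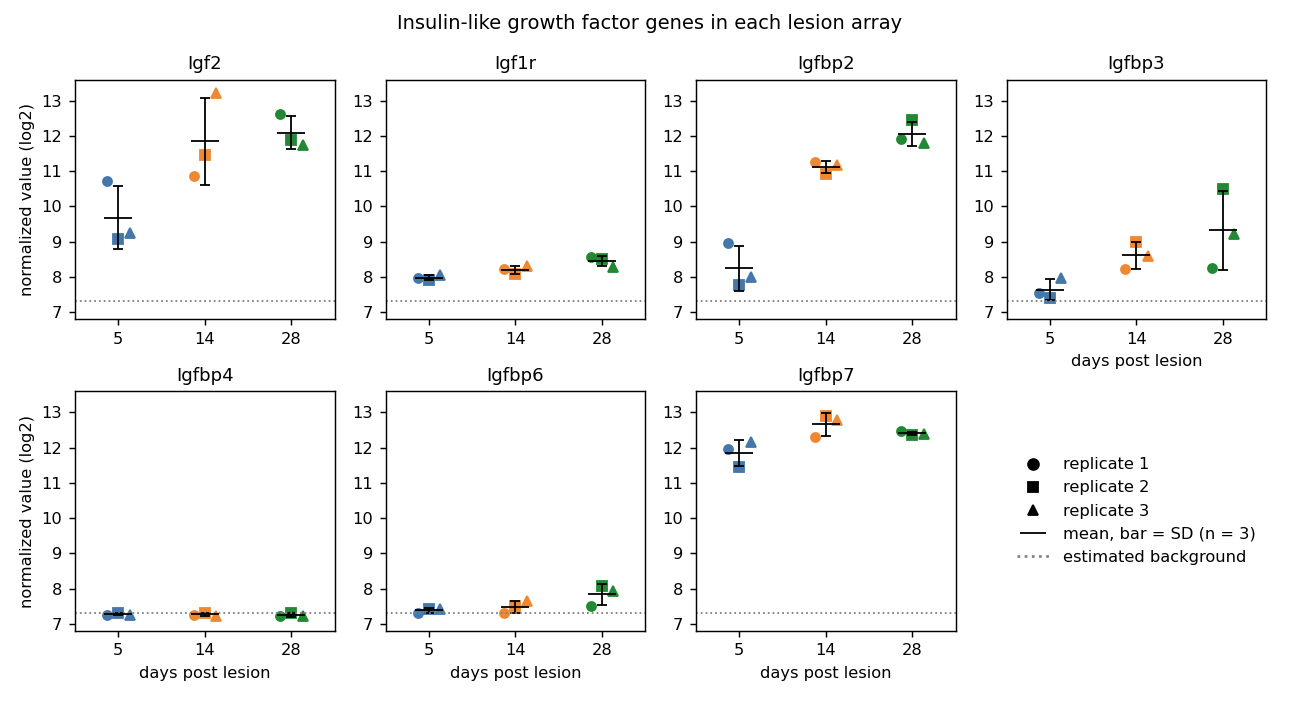
Normalized value (log2) of each of the 7 members on each array at 5, 14 and 28 days post lesion; symbols give the replicate, the black line the mean and the bar the SD of 3 arrays, and the dotted line the highest estimated background. Igfbp2 has no overlap between any 2 of its time points, Igf2 spreads widely at 14 days (10.86 to 13.23), and Igfbp4 lies at or under the background on all 9 arrays.

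Igf2, the fetal growth factor that binds the type 1 and the insulin receptor, was measured by probe ILMN_1359301. Its values were 10.72, 9.07 and 9.26 at 5 dpl, 10.86, 11.45 and 13.23 at 14 dpl, and 12.62, 11.90 and 11.75 at 28 dpl, in the order of the replicates. All 14 dpl and all 28 dpl arrays lay above all 5 dpl arrays, while the 14 and 28 dpl arrays overlapped. The means were 9.68 ± 0.90, 11.85 ± 1.23 and 12.09 ± 0.47 at 5, 14 and 28 dpl. Igf2 rose by 2.16 (SE 0.63, adjusted p = 0.0401, limma) at 14 against 5 dpl, 4.48-fold. Between 28 and 5 dpl it rose by 2.41 (SE 0.63, adjusted p = 0.0135, limma), 5.31-fold. The difference of 28 from 14 dpl was 0.24 (SE 0.63, adjusted p = 0.840, limma), and its size and sign hung on single arrays: leaving out 14 dpl replicate 1, 2 or 3 gave -0.25, 0.05 or 0.94, and leaving out 28 dpl replicate 1 or 3 gave -0.02 or 0.41, and it passed in none of these.

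The Igf2 array of 14 dpl replicate 3 is also the one highest in Ttr. The summed level of the 4 choroid plexus genes measured of 7 listed was 0.613 to 0.655 (5 dpl), 0.618 to 2.22 (14 dpl) and 0.594 to 0.727 (28 dpl). Of its 3 defining markers Ttr alone had a named probe. Ttr was at most 7.32 at 5 dpl, and was 7.52, 8.01 and 7.06 at 28 dpl, when Igf2 was high on all 3 arrays. The other measured genes of the list were at most 7.65 on 14 dpl replicate 3, against 10.73 for Ttr. On the 14 dpl arrays Otx2 was 6.98, 7.01 and 7.19, Aqp1 7.37, 7.47 and 7.65, and Slc4a5 7.37, 7.36 and 7.40. By limma, 0 of the 4 were higher and 0 lower at 14 than 5 dpl. At 28 against 5 dpl 0 were higher and 1 lower. Without 14 dpl replicate 3, Igf2 differed by 1.47 (SE 0.50) between 14 and 5 dpl and did not pass, with an adjusted p = 0.0982. That array does not enter the Igf2 difference of 28 from 5 dpl, though it enters the spread shared by the fit; Igf2 passed there in every setting run, also without that array, with adjusted p-values of limma from 0.000328 to 0.0497. The array of 5 dpl replicate 1, high in neuron genes, was the highest in Igf2 at 5 dpl; without it the difference was 2.68 (SE 0.61, adjusted p = 0.0145, limma) at 14 dpl and 2.93 (SE 0.61, adjusted p = 0.00499, limma) at 28 dpl. Without both arrays, a setting chosen after seeing the data, it was 1.99 at 14 against 5 dpl (adjusted p = 0.00665, limma). That setting leaves out the highest Igf2 array of each of these times. It also gave the lowest adjusted p of the range at 28 against 5 dpl, 0.000328 by limma. The 14 dpl call was also lost without 5 dpl replicate 2 (adjusted p = 0.124) or 3 (0.121), without 14 dpl replicate 2 (0.0787), without any 1 of the 28 dpl arrays (0.0528 to 0.0579) and with only the time points compared (0.0806), with a range of 0.00665 to 0.124 over the settings. The part of choroid plexus RNA in the Igf2 values at 14 and at 28 dpl was not tested.

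Fibroblasts and meninges are another known source of Igf2. Of the 9 genes measured in that list of 10, 2 were higher and 0 lower at 14 than at 5 dpl. Of all probes, 10.7% were higher and 10.1% lower there. At 28 against 5 dpl 3 were higher and 0 lower, where 20.2% and 24.1% of all probes were. By limma, 0 were lower at an unadjusted p under 0.05 too. The list summed to 14.6 to 25.3 (5 dpl), 20.2 to 30.4 (14 dpl) and 23.4 to 27.3 (28 dpl). All 3 defining markers were measured, and Col1a2, a fibrillar collagen chain, was 11.85, 12.06 and 12.87 at 5 dpl, 12.89, 13.78 and 13.82 at 14 dpl, and 13.96, 13.35 and 13.68 at 28 dpl. The other defining markers did not pass: Col1a1, another collagen chain, differed by 0.31 (SE 0.30, adjusted p = 0.522) at 14 and by 0.59 (SE 0.30, adjusted p = 0.141) at 28 against 5 dpl by limma, and Dcn, the proteoglycan decorin, by -0.42 (SE 0.49, adjusted p = 0.608) and -0.18 (SE 0.49, adjusted p = 0.80). The part of these cells in the Igf2 values was not tested.

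The genes whose 9 array values ran most like Igf2 were Hs2st1, a heparan sulfate sulfotransferase (Pearson r = 0.952), Wwc2 (r = 0.945) and Lrrc8d, a subunit of volume-regulated anion channels (r = 0.942). These correlations, and those given below for other members, describe 9 arrays that share the time course. Hs2st1 ran between 8.50 and 9.29 over the arrays. Wwc2 stayed between 7.21 and 7.49, about the background.

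Igf1r, the type 1 receptor (probe ILMN_1374575), was 7.97, 7.91 and 8.07 at 5 dpl, 8.21, 8.07 and 8.31 at 14 dpl, and 8.56, 8.52 and 8.29 at 28 dpl. The 14 dpl and the 28 dpl arrays lay above the 5 dpl arrays, by a small margin at 14 dpl, and overlapped with each other. The means were 7.98 ± 0.08, 8.20 ± 0.12 and 8.45 ± 0.15. It rose by 0.47 (SE 0.09, adjusted p = 0.00310, limma) at 28 against 5 dpl, 1.39-fold. The steps between, 0.22 (SE 0.09, adjusted p = 0.133) at 14 against 5 dpl and 0.26 (SE 0.09, adjusted p = 0.0939) at 28 against 14 dpl, did not pass. The call at 28 against 5 dpl held in every setting run, with adjusted p-values from 0.00215 to 0.0138. Most like Igf1r over the 9 arrays were Prmt2, an arginine methyltransferase (r = 0.953), Nupr1, a stress-induced nuclear protein (r = 0.944), and C4b, a complement component (r = 0.941).

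Igfbp2 showed the largest difference of the 7 members (probe ILMN_1360048). Its values were 8.96, 7.77 and 7.99 at 5 dpl, 11.26, 10.92 and 11.17 at 14 dpl, and 11.91, 12.44 and 11.82 at 28 dpl. No arrays overlapped between any of the time points, and the order was 5, 14 and 28 dpl. The means were 8.24 ± 0.63, 11.12 ± 0.17 and 12.06 ± 0.34. It rose by 2.87 (SE 0.29, adjusted p = 0.000397, limma) at 14 against 5 dpl, 7.33-fold. Between 28 and 5 dpl it rose by 3.81 (SE 0.29, adjusted p = 3e-05, limma), 14.1-fold. Both calls held in every setting run.

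Between 28 and 14 dpl, Igfbp2 differed by 0.94 (SE 0.29, adjusted p = 0.0624, limma), which did not pass although the arrays did not overlap, as was so for 18.6% of all probes. It passed without 5 dpl replicate 1 (adjusted p = 0.00742) or 2 (0.0491), with only 28 and 14 dpl fitted (0.0121), with array weights (0.0170), among probes above background on all 9 arrays (0.0494) and without both 5 dpl replicate 1 and 14 dpl replicate 3 (0.0238), with a range of 0.00742 to 0.163. No 5 dpl array enters that difference, and leaving 1 out acts through the spread shared by the fit. The array of 5 dpl replicate 1 was the highest in Igfbp2 at 5 dpl, as it was in Igf2 and in the summed astrocyte genes (20.0).

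The second of the 3 genes most like Igfbp2 was Gfap, the astrocyte intermediate filament (r = 0.987), beside Kctd15 (r = 0.987) and C5h1orf122 (r = 0.986). Gfap was 12.05, 11.61 and 11.53 at 5 dpl, 13.89, 13.46 and 13.67 at 14 dpl, and 14.57, 14.64 and 14.68 at 28 dpl. Of 9 astrocyte genes measured of 12 listed, 3 were higher at 14 than 5 dpl, 2 at 28 than 14 dpl and 6 at 28 than 5 dpl. In each comparison 0 were lower, also at an unadjusted p under 0.05. The shares of all probes called higher were 10.7%, 7.49% and 20.2% in that order, and called lower 10.1%, 7.48% and 24.1%. Of 10 oligodendrocyte and myelin genes measured of 11 listed, 10, 9 and 10 were higher in that order, and 0 were lower in each. The astrocyte list summed to 10.3 to 20.0 (5 dpl), 30.0 to 35.6 (14 dpl) and 53.3 to 58.9 (28 dpl). Of the defining markers, Aqp4, the astrocyte water channel, stood at or under the estimated background on all 9 arrays (6.99 to 7.28), and Aldh1l1 had no named probe. Aqp4 is 1 of the 6 genes called higher at 28 against 5 dpl, by 0.20 (SE 0.05, adjusted p = 0.0160, limma). No change could be read at that level of signal. The part of astrocyte content in the Igfbp2 values was not tested.

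**Figure D2:**
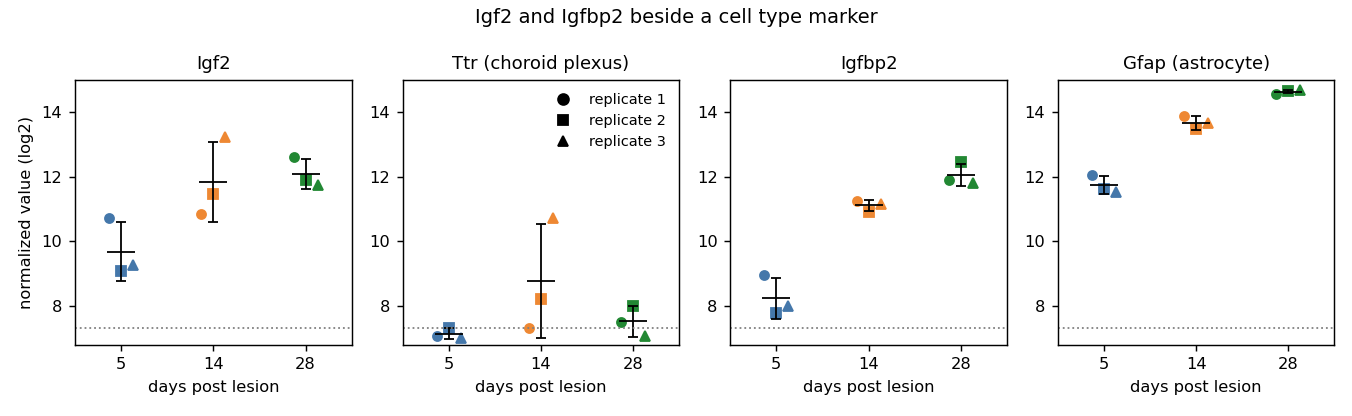
Normalized value (log2) of Igf2, Ttr, Igfbp2 and Gfap on each array at 5, 14 and 28 days post lesion; symbols give the replicate, the black line the mean, the bar the SD of 3 arrays and the dotted line the highest estimated background. Igf2 and Ttr share their highest array, 14 dpl replicate 3 (13.23 and 10.73), and Igfbp2 and Gfap are both lowest at 5 and highest at 28 days.

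Igfbp3, the main carrier of IGF in blood (probe ILMN_1373523), was 7.54, 7.40 and 7.96 at 5 dpl, 8.23, 9.00 and 8.61 at 14 dpl, and 8.26, 10.51 and 9.21 at 28 dpl. The 14 and the 28 dpl arrays lay above the 5 dpl arrays, and the 28 dpl arrays spread over more than 2 log2 units around replicate 2, the highest. The means were 7.63 ± 0.29, 8.61 ± 0.39 and 9.32 ± 1.13. It rose by 1.69 (SE 0.48, adjusted p = 0.0200, limma) at 28 against 5 dpl, 3.23-fold. Without 28 dpl replicate 2 the difference was 1.10 (SE 0.32, adjusted p = 0.0292, limma), and without 5 dpl replicate 2 it was 1.57 and did not pass (adjusted p = 0.0632), nor did it without both 5 dpl replicate 1 and 14 dpl replicate 3 (0.0637). At 14 against 5 dpl it differed by 0.98 (SE 0.48, adjusted p = 0.199, limma), which passed with only these time points fitted (0.0300; range 0.0300 to 0.429). At 28 against 14 dpl the difference was 0.71 (SE 0.48, adjusted p = 0.370, limma), and leaving out 28 dpl replicate 1 or 2 gave 1.25 or 0.12, neither of which passed.

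Igfbp6, a binding protein that prefers IGF2 (probe ILMN_1358541), was dim. It was 7.30, 7.42 and 7.42 at 5 dpl, 7.30, 7.49 and 7.64 at 14 dpl, and 7.51, 8.08 and 7.92 at 28 dpl, and stood above the estimated background on 2, 2 and 3 of the arrays. The 28 dpl arrays lay above the 5 dpl arrays and overlapped with the 14 dpl arrays. It rose by 0.46 (SE 0.14, adjusted p = 0.0274, limma) at 28 against 5 dpl, with means of 7.84 ± 0.29 at 28 dpl and 7.38 ± 0.07 at 5 dpl. That call ended when any 1 of the 5 dpl arrays was left out (adjusted p of 0.0570 to 0.0645), without 28 dpl replicate 2 (0.0861) or 3 (0.0842), without both 5 dpl replicate 1 and 14 dpl replicate 3 (0.0721) and with array weights (0.0651), with a range of 0.00359 to 0.0861. The differences of 14 from 5 dpl (0.10, SE 0.14) and of 28 from 14 dpl (0.36, SE 0.14, adjusted p = 0.123, limma) did not pass, the second passing without 28 dpl replicate 1 (0.0249).

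Igfbp4 (probe ILMN_2039365), a binding protein cleaved by the protease PAPP-A, stood between 7.22 and 7.30 and was not above the estimated background on any of the 9 arrays. Its differences were 0.00, -0.01 and -0.02 (SE 0.05 each) for 14 against 5, 28 against 14 and 28 against 5 dpl. No change could be read at this level of signal.

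Igfbp7, a secreted protein of vessels and matrix that binds IGF weakly (probe ILMN_1368086), was bright throughout. Its values were 11.95, 11.45 and 12.17 at 5 dpl, 12.29, 12.91 and 12.79 at 14 dpl, and 12.47, 12.37 and 12.38 at 28 dpl. All arrays of the later times lay above all 5 dpl arrays, and the 28 dpl arrays fell within the range of the 14 dpl arrays. The means were 11.85 ± 0.37, 12.67 ± 0.33 and 12.41 ± 0.05. Igfbp7 rose by 0.81 (SE 0.20, adjusted p = 0.0212, limma) at 14 against 5 dpl, 1.75-fold, and differed by -0.26 (SE 0.20, adjusted p = 0.436) between 28 and 14 dpl.

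Igfbp7 differed by 0.55 (SE 0.20) between 28 and 5 dpl, with an adjusted p = 0.0507, just above the threshold of 0.05. It passed with cyclic loess (0.0382), the intensity trend (0.0427), either filter on dim probes (0.0449 and 0.0422), adjustment over named probes alone (0.0483) or only these time points (0.0448). Leaving out 5 dpl replicate 3 (0.0272) or 14 dpl replicate 1 (0.0277) also let it pass, and the range was 0.0272 to 0.15. The call at 14 against 5 dpl ended without 5 dpl replicate 2 (0.0526), 14 dpl replicate 2 (0.0824) or 3 (0.0778), with only these time points (0.0561) and without both 5 dpl replicate 1 and 14 dpl replicate 3 (0.0848). Endothelial cells are a known source of Igfbp7. Of their 6 genes measured of 11 listed, 3 were lower and 0 higher at 14 than 5 dpl. Of all probes, 10.1% were lower and 10.7% higher there. At 28 against 5 dpl 4 were lower and 0 higher, where 24.1% and 20.2% of all probes were. By limma, 0 of these genes were higher at an unadjusted p under 0.05 too. Their summed level was 4.49 to 5.57 (5 dpl), 3.08 to 3.94 (14 dpl) and 3.03 to 4.50 (28 dpl). Cldn5, a tight junction protein and the defining marker with a named probe, was 10.51 to 11.25 (5 dpl), 10.29 to 10.94 (14 dpl) and 10.35 to 11.13 (28 dpl). By limma Cldn5 differed by -0.12 (SE 0.27, adjusted p = 0.793) at 14 and by -0.14 (SE 0.27, adjusted p = 0.694) at 28 against 5 dpl. The part of these cells in the Igfbp7 values was not tested. Most like Igfbp7 over the 9 arrays were Rcan1, a calcineurin regulator (r = 0.965), Ints5, an Integrator subunit (r = 0.964), and Gpx7, an endoplasmic reticulum peroxidase (r = 0.928).

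**Figure D3:**
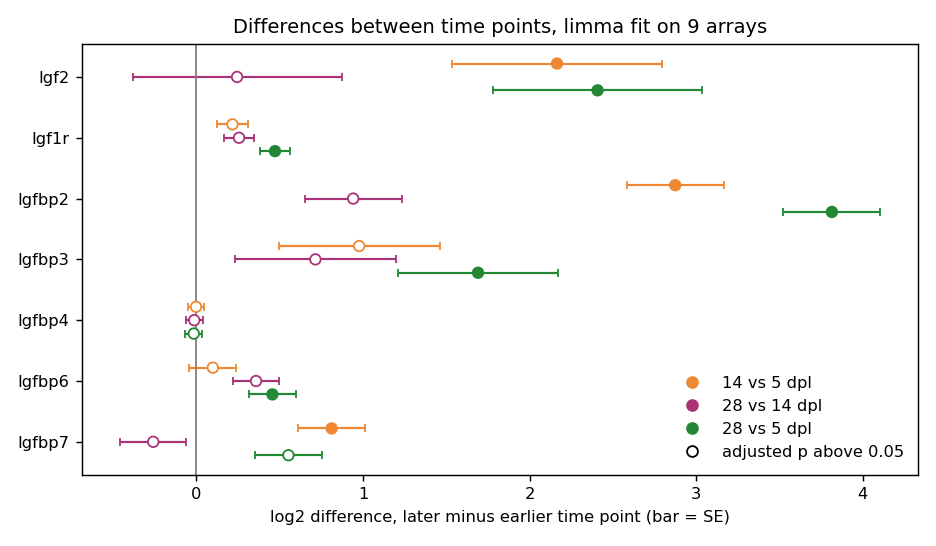
Log2 difference, later minus earlier time point, with its SE (bar) for the 7 members in the 3 comparisons; filled points have an adjusted p of at most 0.05. Igfbp2 reaches 3.81 at 28 against 5 days, Igf2 2.41 and Igfbp3 1.69, and Igfbp4 lies at 0 in each comparison.

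Arrays that did not overlap were counted as a description. At 14 against 5 dpl, 5 of 7 members had all later arrays above all earlier arrays, where 18.5% of all probes did. For 28 against 5 dpl the number was 6 of 7, all but Igfbp4, where 23.9% of all probes did. Between 28 and 14 dpl it was 1 of 7, Igfbp2, higher at 28 dpl, where 18.6% of all probes did. The reverse, all later arrays below all earlier arrays, held for 0 members, against 19.5% of all probes at 14 against 5 dpl, 20.2% at 28 against 14 dpl and 29.9% at 28 against 5 dpl. The comparisons of 14 and of 28 with 5 dpl share the 5 dpl arrays, so their values are not independent of each other.

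Of 18 other genes of the IGF system, 4 had a named probe: Igf2r, Htra1, Stc1 and Ghr. Igf2r, the mannose 6-phosphate receptor that takes IGF2 to lysosomes and also sorts lysosomal enzymes, was 11.67, 11.68 and 11.91 at 5 dpl, 10.22, 10.20 and 10.45 at 14 dpl, and 10.10, 10.50 and 10.27 at 28 dpl. The 5 dpl arrays lay above all others, and the later times overlapped. It fell by 1.46 (SE 0.12, adjusted p = 0.000151, limma) at 14 against 5 dpl, while Igf2 rose in that comparison, and fell by 1.47 (SE 0.12, adjusted p = 3.86e-05, limma) at 28 against 5 dpl. Genes of microglia and macrophages, cells rich in lysosomes, were lower in 6 and higher in 0 of 19 cases at 14 than 5 dpl. Of all probes, 10.1% were lower and 10.7% higher there. At 28 against 5 dpl 14 were lower and 0 higher, where 24.1% and 20.2% of all probes were. At an unadjusted p under 0.05, limma gave 1 of these genes higher at 14 dpl and 0 at 28 dpl. They summed to 189 to 200 (5 dpl), 164 to 179 (14 dpl) and 115 to 146 (28 dpl), and Aif1, the defining marker with a named probe, was 14.47 to 14.55 (5 dpl), 14.34 to 14.61 (14 dpl) and 13.90 to 14.14 (28 dpl). Aif1 differed by -0.09 (SE 0.09, adjusted p = 0.556, limma) at 14 against 5 dpl, where Igf2r fell, and fell by 0.52 (SE 0.09, adjusted p = 0.00164, limma) at 28 against 5 dpl. The part of these cells in the Igf2r values was not tested.

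Htra1, a secreted serine protease that cleaves IGFBP5 among other substrates, was 11.22, 10.92 and 11.27 at 5 dpl, 12.48, 12.96 and 12.80 at 14 dpl, and 13.61, 13.09 and 13.17 at 28 dpl. No arrays overlapped between time points. It rose by 1.61 (SE 0.17, adjusted p = 0.000475, limma) at 14 against 5 dpl and by 2.15 (SE 0.17, adjusted p = 3.44e-05, limma) at 28 against 5 dpl. Its difference of 28 from 14 dpl was 0.54 (SE 0.17, adjusted p = 0.0656, limma). Stc1, whose product inhibits the IGFBP protease PAPP-A, was lower at both later times, and not above background on any array there. It was 7.70 ± 0.26 at 5 dpl, with differences of -0.52 (SE 0.12, adjusted p = 0.0164) at 14 dpl and -0.53 (SE 0.12, adjusted p = 0.00687) at 28 dpl; against the background this is at least 1.31-fold lower at either time. The call at 14 dpl ended without 14 dpl replicate 3 (0.0593). Ghr, the growth hormone receptor, stood at or under the background on all 9 arrays.

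Of 39 genes of the pathway inside the cell, 17 had a named probe. At 14 against 5 dpl 1 was higher and 6 were lower, where 10.7% of all probes were higher and 10.1% lower. By 28 dpl, 1 was higher and 8 were lower than at 5 dpl, where 20.2% and 24.1% of all probes were. The count of 6 was 3 without 14 dpl replicate 2 or 3. Eif4ebp1, the translation repressor that mTOR phosphorylates, was 10.68, 11.04 and 11.00 at 5 dpl, 10.31, 10.07 and 10.27 at 14 dpl, and 9.63, 10.04 and 9.76 at 28 dpl, and fell by 1.10 (SE 0.13, adjusted p = 0.000252, limma) at 28 against 5 dpl. No arrays overlapped between time points. Ptpn1, a phosphatase that acts on the insulin and IGF receptors, fell by 0.77 (SE 0.10, adjusted p = 0.000453, limma) at 28 against 5 dpl, with means of 8.96 ± 0.13 and 9.73 ± 0.18.

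Pik3cb, a catalytic subunit of PI3 kinase, was at least 1.46-fold lower at 28 than 5 dpl (adjusted p = 0.000265, limma), being above background on no 28 dpl array. Irs3, a receptor substrate of rodents, fell by 0.32 (SE 0.07, adjusted p = 0.0125, limma) at 14 against 5 dpl, a call that ended without 14 dpl replicate 2 (0.0538) or 3 (0.0532). The gene that was higher was Inppl1, the lipid phosphatase SHIP2, which rose by 0.58 (SE 0.09, adjusted p = 0.000973, limma) at 28 against 5 dpl. Its rise of 0.38 at 14 dpl did not pass without 14 dpl replicate 2 (0.0682) or 3 (0.0511).

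At 28 against 14 dpl 1 of the 17 was lower and 0 were higher, where 7.48% and 7.49% of all probes were. The gene was Shc1, an adaptor between the receptor and the MAP kinase pathway, which fell by 0.37 (SE 0.10, adjusted p = 0.0440, limma). It was 8.04, 8.31 and 8.10 at 5 dpl, 8.13, 7.88 and 7.76 at 14 dpl, and 7.54, 7.60 and 7.51 at 28 dpl. The 28 dpl arrays lay below all others. Of the left-out arrays, the call ended without 5 dpl replicate 3 (0.0594), without 14 dpl replicate 1 (0.122) or 2 (0.0829) and without any 1 of the 28 dpl arrays (0.0724 to 0.124). The number lower in this comparison was 3 with array weights and 2 without 5 dpl replicate 1.

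**Figure D4:**
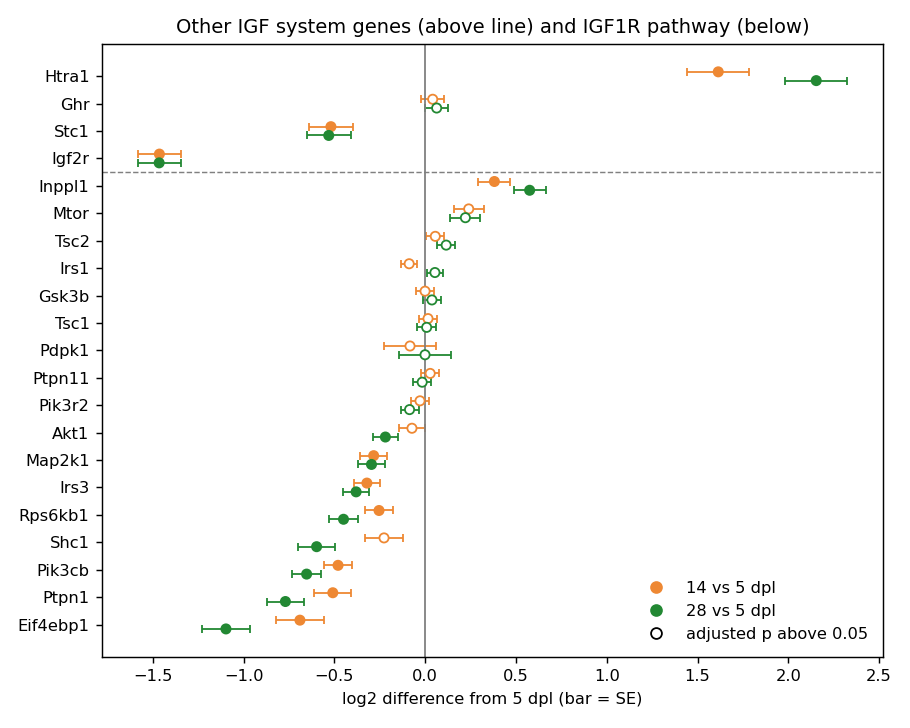
Log2 difference from 5 dpl with its SE (bar) at 14 and at 28 dpl for 4 other genes of the IGF system (above the dashed line) and 17 genes of the pathway inside the cell (below it); filled points have an adjusted p of at most 0.05. Htra1 is 2.15 higher and Igf2r 1.47 lower at 28 dpl on the log2 scale, and Eif4ebp1 lies lowest in the pathway at -1.10.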

How the data were processed

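RNA was amplified to biotinylated cRNA (Ambion TotalPrep) for Illumina arrays, per the labels' protocols. The authors deposited a normalized table without a stated unit, and its values were read as log2 because they span the range of log signals. Its 9 sorted columns agree within 0.0017, as quantile normalization gives. No source used here states the transform or the filter. The deposited raw table holds a detection p-value for 22226 targets on each array, per the file headers; its 9 columns of signals were not used. The tables share 0 identifiers and raw columns carry no replicate number, so the detection p-values served only for background: the value at the rank of targets with a detection p above 0.01 on each array, taking the 10552 targets detected on at least 1 array to be the table's probes, which was not tested. On each array 8727 to 9330 targets were detected (39.3% to 42.0%); precision is limited by the number of arrays.

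The platform annotation names 7679 probes, each with 1 symbol, updated through the RefSeq table. limma 3.58.1 under R 4.3.3 fitted 1 mean per time point to all 10552 probes and 9 arrays (lmFit, eBayes), with Benjamini-Hochberg adjustment and a threshold of 0.05; the fit was checked on simulated data. Summed levels add 2 to the power of each value over a list. Named were all members, up to 4 genes of each pathway list with the smallest p per comparison, the 3 genes most correlated with each member that passed the F test, and defining markers. Members and lists were chosen with earlier results of these data known. Alternatives changed normalization, array weights, variance trend, samples fitted, filters on dim probes, adjustment, replicate block and each array left out. Replicate numbers were checked for pairing and did not pair the arrays.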

Additional observations from a re-analysis of the deposited data

How the results depend on the processing

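No called difference of a member changed direction in the settings run. Over the 21 differences (7 members, 3 comparisons), 390 alternative values were computed: 351 stayed on their side of the threshold, 23 no longer passed and 16 newly passed. Members called higher at 14 against 5 dpl numbered 3, with a range of 1 to 3 when single arrays were left out. At 28 against 14 dpl the number was 0, with a range of 0 to 1 over left-out arrays, and 1 (Igfbp2) with array weights, among probes above background on all arrays, with only the time points compared, and without 5 dpl replicate 1 and 14 dpl replicate 3 together. At 28 against 5 dpl the number was 5, with a range of 3 to 6, and 3 without those 2 arrays together, a setting chosen after seeing the data. The F test passed for 4 members, with a range of 2 to 5 over left-out arrays. Other settings stayed within 1.5 times these counts. Leaving out an array removes samples and degrees of freedom; the cause of the other shifts was not tested.

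The replicate numbers did not pair the arrays: of 9 same-numbered pairs of arrays from different times, 1 had a correlation of deviations over 0.1 (range -0.29 to 0.15). With the replicate number as a block, 2 members were higher at 14 against 5 dpl, 0 at 28 against 14 dpl and 5 at 28 against 5 dpl, and the F test passed for 5. Igf2 at 14 against 5 dpl (adjusted p = 0.0735) and Shc1 at 28 against 14 dpl (0.0709) did not pass with the block, and it changed no other pairwise call of a member or of a gene named from the IGF system and pathway lists. The number of pathway genes lower was 5 at 14 against 5 dpl, 0 at 28 against 14 dpl and 7 at 28 against 5 dpl with the block. With the block, all probes called at 14 against 5 dpl numbered 888 higher and 856 lower.

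Among the 17 pathway genes, those higher at 14 against 5 dpl numbered 1 (range 0 to 2 over all settings) and those lower 6 (3 to 6). At 28 against 14 dpl those higher numbered 0 (0 to 1) and those lower 1 (0 to 3), and at 28 against 5 dpl those higher numbered 1 (1 to 3) and those lower 8 (7 to 8). Of the 4 other IGF system genes, those lower numbered 2 (1 to 2) at 14 and at 28 against 5 dpl, and those higher at 28 against 14 dpl 0 (0 to 1). Equal 75th percentiles changed no count of members, as the table was already quantile normalized. Signal near background limits Igfbp4 and Igfbp6.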
